A study of Mus musculus with 6 samples.

Results

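Hydroxysteroid dehydrogenase genes encode oxidoreductases that carry the names of steroid enzymes, although several act mainly on fatty acyl chains or retinoids. The rule named 10 genes, and 9 of them were found by symbol among the 19616 genes of the deposited table: Hsd17b2, Hsd17b4, Hsd17b6, Hsd17b10, Hsd17b11, Hsd17b12, Hsd17b13, Hsd11b2 and Hsd3b3. Hsd17b8 is listed there under its older symbol H2-Ke6, a synonym in RefSeq, and is given beside the other 9 without entering their counts. RNA was sequenced from jejunal intestinal epithelial cells (IEC), enriched with EDTA, of mice aged 3 months. There were 3 wild-type control mice, C1, C3 and C3-3, and 3 mice of the genotype villin-Cre Hdac1-/-; Hdac2-/-, H1, H5 and H9, with 1 library per mouse and no treatment in the labels. Villin-Cre acts on floxed Hdac1 and Hdac2 alleles in the intestinal epithelium, and the mice were of mixed background (C57BL/6J X 129SV X CD1).

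The steroid-active enzymes of this group switch hormones between active and inactive forms by oxidising or reducing a single hydroxyl or keto group. In the gut, Hsd11b2 is known for inactivating corticosterone, and Hsd17b2 for oxidising estradiol and testosterone. Several relatives serve lipid metabolism. Hsd17b4 is the bifunctional enzyme of peroxisomal beta-oxidation, Hsd17b12 is the ketoacyl-CoA reductase of fatty acid elongation, Hsd17b10 works in mitochondria, and Hsd17b11 and Hsd17b13 sit on lipid droplets.

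The control libraries held 58017009 to 65902344 counts and the Hdac1/2-deleted libraries 36111035 to 65230566, H5 being the shallowest. Counts of Hdac1 were 1916 to 2596 per control library against 96 to 296 per Hdac1/2-deleted library, whereas those of Hdac2 were 1313 to 2176 against 964 to 1971, so the Hdac2 counts did not separate the groups (log2 fold change -0.18, adjusted p = 0.44 in edgeR's quasi-likelihood test). Which exons the floxed alleles lose is not given in the sources used here, so gene counts do not check the Hdac2 label. The calls of marker genes, defined in the next paragraph, stand beside 12.7% called lower, 12.4% higher and 25.2% either way over all genes tested. Of 13 epithelial identity genes, including Epcam, Cdh1 and Vil1, all were tested, 1 was called higher and 0 lower, but their summed level was lower without overlap, at 14990 to 16605 CPM (counts per 1e6, scaled by edgeR's TMM factors) in control against 11713 to 14318 CPM in Hdac1/2-deleted IEC. Epcam (log2 fold change -0.62), Cldn3 (-0.79) and Krt20 (-0.57) passed the adjusted p and missed only the 2-fold limit. Of 15 absorptive enterocyte genes, 7 were called lower and 1 higher, and their summed level was 95985 to 110529 CPM in control against 41459 to 56368 in Hdac1/2-deleted IEC. All 6 Paneth cell genes and 3 of 7 goblet cell genes were called lower, with summed levels of 3282 to 5264 against 181 to 279 CPM and of 18426 to 21045 against 6568 to 13666 CPM. Of 13 crypt and proliferation genes, 2 were called lower and 1 higher, with overlapping sums. Of 9 enteroendocrine genes, 4 were called lower and 1 higher (Sct), and their summed level was 719 to 802 CPM in control against 1071 to 1477. Of 4 tuft cell genes tested, 3 were called lower and 1 higher (Trpm5), with overlapping sums. Summed immune markers covered 55.4 to 155 CPM in control and 46.8 to 87.1 CPM in Hdac1/2-deleted mice, and stromal and vessel markers 7.53 to 66.5 and 14.1 to 23.8 CPM, with overlapping sums for both. Of 11 immune markers tested, 2 were called lower (Cd3g and Cd8a) and 2 higher (Cd4 and Csf1r). Of 10 stromal and vessel markers tested, 4 were called lower and 1 higher (Pdgfrb, from 1.62 to 13.01 CPM). Those lower were Dcn and the smooth muscle genes Acta2, Des and Myh11. Acta2 went from 8.06 ± 6.50 CPM in control (mean ± SD) to a mean of 0.07 CPM. Des went from 9.36 ± 7.55 to 0.13 CPM and Myh11 from 12.8 ± 12.5 to 0.0045 CPM. The control mice thus differed widely in these smooth muscle genes. Of the 13 immune and 12 stromal and vessel markers, 0 stayed at 10 counts or fewer in all libraries. C3 was the only mouse with more than 5 counts of the Y-linked genes Ddx3y, Eif2s3y, Kdm5d or Uty in its library.

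Of the 9 genes, 6 were called lower in Hdac1/2-deleted IEC (Hsd17b6, Hsd17b11, Hsd17b13, Hsd3b3, Hsd17b4 and Hsd11b2), 1 was called higher (Hsd17b12) and 2 were not called (Hsd17b2 and Hsd17b10). A call required an adjusted p of at most 0.05 in edgeR's quasi-likelihood test and a change of at least 2-fold. Over all 15618 genes tested, 12.7% were called lower and 12.4% higher, or 25.2% either way. Without the fold limit these shares were 20.3% and 20.5%, and the same 7 members passed. The groups did not overlap for 7 of the 9 genes, against 53.2% of all genes tested, 26.6% with the Hdac1/2-deleted mice lower. The median log2 fold change of the 9 genes was -1.41, against -0.01 over all genes tested. All 9 genes passed the filter on low counts. In a bulk sample, fewer cells of a type and less RNA per cell cannot be told apart, and the part of the enterocyte, smooth muscle and other marker differences in these results was not tested. Levels are CPM, with mean ± SD over 3 mice per group. Nothing in the labels gives a sequencing batch.

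**Figure D1:**
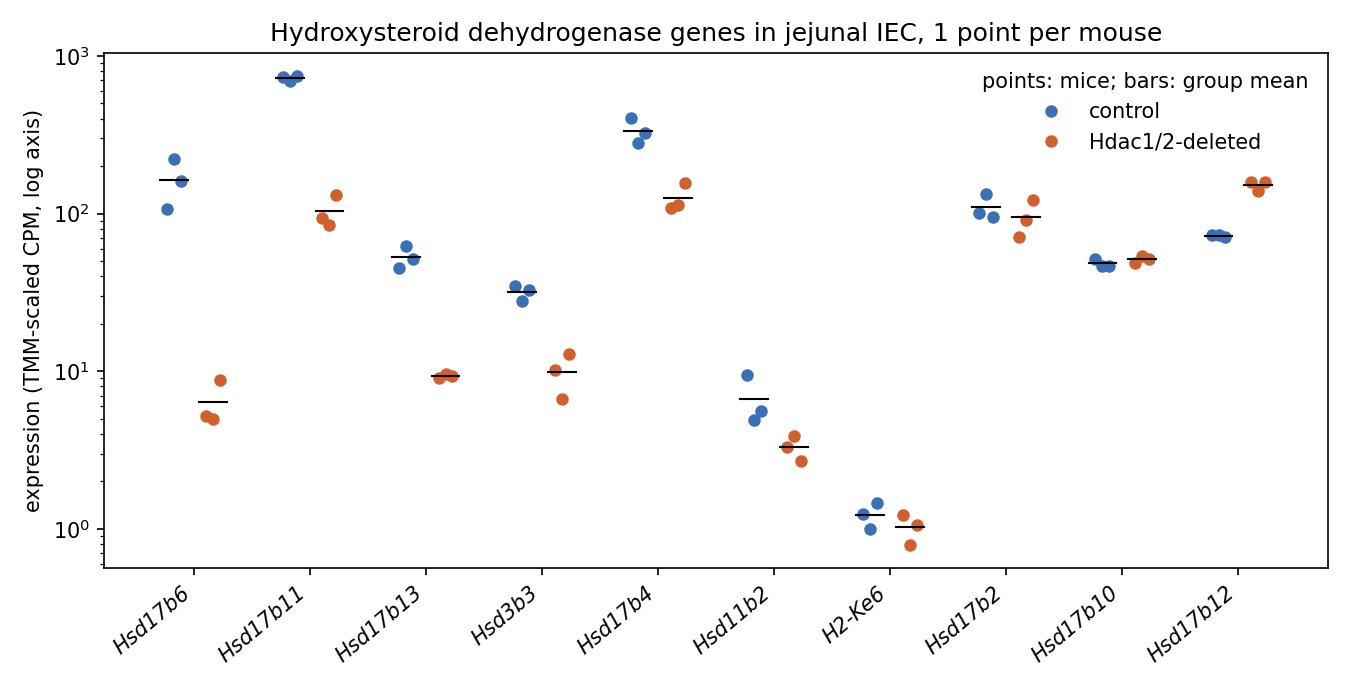
Expression of each gene in each mouse, as TMM-scaled CPM on a log axis, with 3 control mice in blue, 3 Hdac1/2-deleted mice in orange and a bar at each group mean. The groups are apart for 7 of the 9 genes matched by symbol and overlap for Hsd17b2, Hsd17b10 and H2-Ke6.

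RefSeq promoters on GRCm38.p6 were at hand for 7 of the 10 genes, not for Hsd17b2, Hsd17b4 and Hsd11b2. They are shown for the 3 genes with the largest losses and for Hsd17b12, the member that rose, because these differ in the number of CG pairs, the sites of DNA methylation in mammals. CG pairs are in capitals. Each run reads 5′ to 3′ on the minus strand and covers the part of the 250 bases before the RefSeq start that also precedes the GENCODE start. The regions are chr10:128007612-128007861 for Hsd17b6, chr5:104021920-104022046 for Hsd17b11, chr5:103977411-103977638 for Hsd17b13 and chr2:94157965-94158159 for Hsd17b12.
Hsd17b6: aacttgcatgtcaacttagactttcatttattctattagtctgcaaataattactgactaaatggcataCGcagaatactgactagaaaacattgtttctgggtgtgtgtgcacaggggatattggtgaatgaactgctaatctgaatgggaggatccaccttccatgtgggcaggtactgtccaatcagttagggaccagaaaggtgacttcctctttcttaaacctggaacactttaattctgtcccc
Hsd17b11: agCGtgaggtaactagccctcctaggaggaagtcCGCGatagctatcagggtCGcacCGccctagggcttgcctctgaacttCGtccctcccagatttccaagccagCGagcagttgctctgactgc
Hsd17b13: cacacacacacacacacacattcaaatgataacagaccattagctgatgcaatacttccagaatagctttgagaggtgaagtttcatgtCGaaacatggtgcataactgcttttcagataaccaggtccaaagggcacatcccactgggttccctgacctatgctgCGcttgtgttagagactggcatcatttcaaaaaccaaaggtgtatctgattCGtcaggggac
Hsd17b12: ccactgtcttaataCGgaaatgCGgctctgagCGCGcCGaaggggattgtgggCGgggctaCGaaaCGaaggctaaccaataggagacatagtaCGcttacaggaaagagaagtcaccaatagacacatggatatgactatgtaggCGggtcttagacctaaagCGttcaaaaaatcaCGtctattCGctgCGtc

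In the full 250 bases, Hsd17b6 held 1 CG pair, Hsd17b13 held 3, Hsd3b3 held 0 and Hsd17b11 held 13. Hsd17b10 held 12, H2-Ke6 held 11 and Hsd17b12 held 20. Over 32851 promoter windows of the same length the median was 6, and 7.87% held fewer than Hsd17b6 and 82.1% fewer than Hsd17b12. The genes called lower with a promoter at hand thus held from 0 to 13 CG pairs, on both sides of the median. For Hsd17b11, the highest of them, 68.5% of windows held fewer, and the upper quartile of all windows was 16. Hsd17b4 and Hsd11b2, also called lower, could not be placed. Motifs were searched on both strands. AGGTCA, a core element of many nuclear receptors, occurred in the window of Hsd17b13 and in none of the 6 others, against 14% of all windows. GGGCGG, the GC box, occurred in those of Hsd17b10, Hsd17b11 and Hsd17b12, against 32.7% of all windows. TATAAA occurred in none of the 7, against 12.4%. CCAAT occurred in every window except that of Hsd17b13, against 33.8% of all windows. AGATAA occurred in those of Hsd17b13 and Hsd3b3, against 9.99% of all windows. Differences from the shares of all windows were not tested. These matches describe letters only.

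Hsd17b6, a microsomal enzyme of the retinol dehydrogenase type that oxidises androgens and retinol, showed the largest change of the group. It was measured at 108 CPM in C1, 221 in C3 and 162 in C3-3. In Hdac1/2-deleted mice it was at 5.22 CPM in H1, 4.98 in H5 and 8.81 in H9. Every Hdac1/2-deleted mouse lay far below every control mouse, and C3 was the highest of the control mice. The mean fell from 164 ± 56.9 to 6.34 ± 2.15 CPM, a log2 difference of -4.69 (95% interval -5.51 to -3.87, standard error or SE 0.36). The Benjamini-Hochberg adjusted p of this change was 5.6e-05 in edgeR's quasi-likelihood test, which gives every adjusted p below. The remaining level was 3.88% of control, and Hsd17b6 ranked 82 from the most negative log2 fold change among 15618 genes. Without C3, the library with Y-linked transcripts, the log2 fold change of Hsd17b6 was -4.40.

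The lipid droplet enzymes Hsd17b11 and Hsd17b13 came next. Hsd17b11, the most abundant of the 9 genes per kb in control IEC, was measured at 735 CPM in C1, 692 in C3 and 741 in C3-3. The level was 93.2 CPM in H1, 84.8 in H5 and 132 in H9. The 3 control mice lay close together and far above the highest Hdac1/2-deleted mouse. Its log2 fold change was -2.81 (adjusted p = 2.1e-05 in the same test, SE 0.20), from 723 ± 26.9 to 103 ± 25.2 CPM, or 6.99-fold lower. Hsd17b13, best known as a lipid droplet protein of hepatocytes, was at 45.1 CPM in C1, 62.5 in C3 and 51.6 in C3-3. It was at 9.10, 9.64 and 9.35 CPM in H1, H5 and H9. The Hdac1/2-deleted mice were nearly identical for this gene, with an SD of 0.27 CPM against 8.77 among controls. Its log2 fold change was -2.50 (adjusted p = 1.3e-05 in the same test, SE 0.16), 5.67-fold lower.

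Hsd3b3 belongs to the clustered family that converts hydroxysteroid precursors to ketosteroids. It was measured at 34.7 CPM in C1, 28.1 in C3 and 32.8 in C3-3, and at 10.1, 6.63 and 12.8 CPM in H1, H5 and H9. All Hdac1/2-deleted mice were below all control mice, with a log2 fold change of -1.69 (adjusted p = 6.5e-04 in the same test, SE 0.24). Hsd17b4 was measured at 402 CPM in C1, 279 in C3 and 323 in C3-3, and at 108, 114 and 156 CPM in H1, H5 and H9. The groups did not overlap, and C1 was the highest control here. The log2 fold change of Hsd17b4 was -1.41 (adjusted p = 6.7e-04 in the same test, SE 0.20), 2.66-fold lower.

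Hsd11b2 was a low and borderline member. It was at 9.47 CPM in C1, 4.88 in C3 and 5.55 in C3-3, and at 3.31, 3.87 and 2.68 CPM in H1, H5 and H9. The groups did not overlap, but the lowest control and the highest Hdac1/2-deleted mouse were close, and C1 stood above the other control mice. Its log2 fold change was -1.02 (SE 0.31, 95% interval -1.71 to -0.32, adjusted p = 0.027, same test). Without C1 the log2 fold change was -0.66 with an adjusted p of 0.095 in the edgeR fit. The adjusted p was 0.069 without H1 and 0.089 without H9, and the log2 fold change was -0.85 with counts scaled by library totals only, so the gene was called in some settings and not in others.

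Hsd17b12 was the exception in direction. It was measured at 72.7 CPM in C1, 73.6 in C3 and 70.7 in C3-3, and at 158, 138 and 158 CPM in H1, H5 and H9. Both groups were tight and well apart. The mean rose from 72.3 ± 1.45 to 151 ± 11.6 CPM, or by 1.07 on the log2 scale (SE 0.13, 95% interval 0.78 to 1.35, adjusted p = 2.6e-04, same test). The interval includes the 2-fold limit itself.

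Hsd17b2 had 101 CPM in C1, 133 in C3 and 94.7 in C3-3, and 71.4, 91.0 and 122 CPM in H1, H5 and H9. The groups overlapped, and its log2 fold change was -0.21 with a 95% interval of -0.70 to 0.28 (adjusted p = 0.47, same test). Hsd17b10 had 51.4, 46.8 and 46.8 CPM in C1, C3 and C3-3, and 48.3, 53.6 and 51.5 CPM in H1, H5 and H9. It overlapped as well, with a log2 fold change of 0.08 and a 95% interval of -0.20 to 0.36 (adjusted p = 0.63, same test). For both genes the interval leaves out a 2-fold change in either direction. H2-Ke6, the gene for Hsd17b8, had 55 to 82 counts in control and 30 to 90 in Hdac1/2-deleted mice. Its log2 fold change was -0.26, with a wide 95% interval of -1.03 to 0.50 (adjusted p = 0.56, same test). Its exons are shared over 86.4% of their length with Gm20427 on the same strand, and 41.2% of the 100-base windows of its longest coding transcript occur there too, so part of the reads cannot be assigned to either gene. The summed counts, an alternative chosen after seeing the data, gave a log2 fold change of -0.06.

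**Figure D2:**
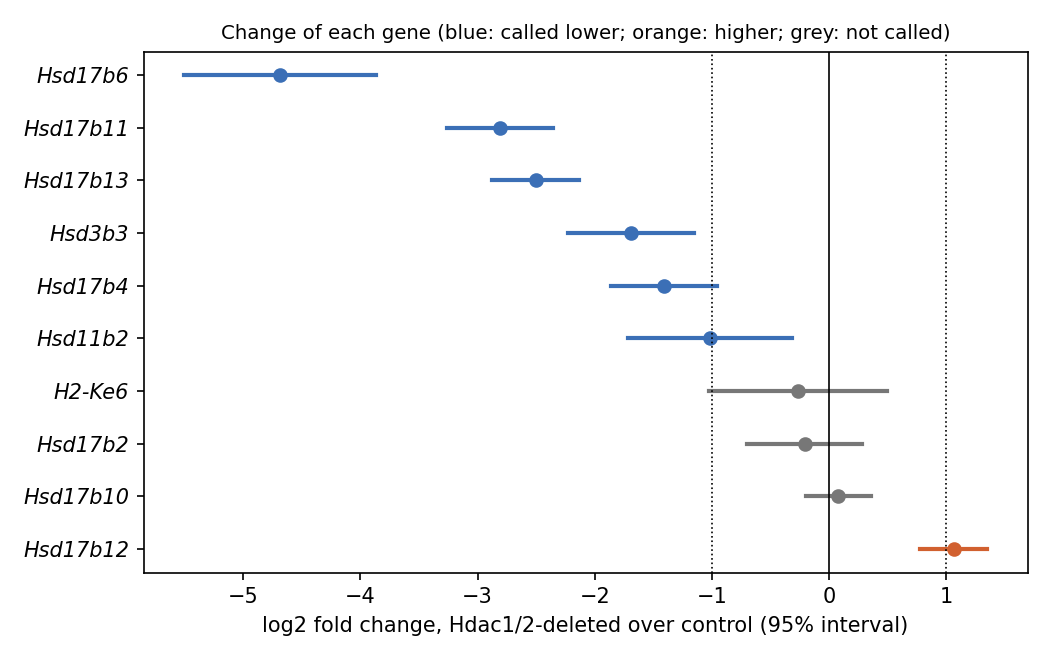
Log2 fold change of each gene in Hdac1/2-deleted over control IEC, with its 95% interval from the edgeR fit of 3 against 3 mice. Dotted lines mark a 2-fold change. The values run from -4.69 for Hsd17b6 to 1.07 for Hsd17b12, and the interval of Hsd11b2 reaches from -1.71 to -0.32.

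Set per kilobase of merged exons, which allows genes to be compared, the order of the members changed between the groups. In control IEC the levels in CPM per kb were 221 ± 8.22 for Hsd17b11, 104 ± 36.1 for Hsd17b6, 98.4 ± 18.3 for Hsd17b4 and 57.0 ± 10.7 for Hsd17b2. Hsd17b10 (37.2 ± 2.06), Hsd17b12 (30.04 ± 0.60) and Hsd17b13 (24.6 ± 4.07) followed, with Hsd3b3 (4.98 ± 0.53) and Hsd11b2 (3.60 ± 1.35) last. Hsd17b6 and Hsd17b4 lay within their spread of each other, as did Hsd3b3 and Hsd11b2. In Hdac1/2-deleted IEC, Hsd17b12 led with 62.9 ± 4.82 CPM per kb, followed by Hsd17b2 (49.3 ± 13.3), Hsd17b10 (39.4 ± 2.05), Hsd17b4 (37.0 ± 7.67) and Hsd17b11 (31.6 ± 7.71), neighbours that were not separated beyond their spread. Hsd17b13 (4.34 ± 0.12), Hsd17b6 (4.02 ± 1.36), Hsd11b2 (1.79 ± 0.32) and Hsd3b3 (1.54 ± 0.48) formed the low end. The merged exons of Hsd3b3 span 6396 bases, against 1533 for its longest coding transcript, so its level per kb depends on the isoforms counted.

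Summed over the 9 genes, expression was 581 ± 22.1 CPM per kb in control and 232 ± 31.6 in Hdac1/2-deleted mice. Hsd17b11 made up 34.95% to 39.8% of that sum per control mouse, against 12.02% to 15.1% per Hdac1/2-deleted mouse. The share of Hsd17b6 went from between 12.1% and 23.2% to between 1.46% and 2.08%. The share of Hsd17b12, whose level rose 2.09-fold, went from between 5.04% and 5.34% to between 24.4% and 31.1%. Shares of 2 genes that were not called rose too. Hsd17b2 went from between 8.61% and 11.4% to between 17.6% and 23.7%, and Hsd17b10 from between 5.95% and 7.01% to between 14.8% and 19.1%. Because the sum fell, a member can gain share without a rise of its own level. The share of Hsd17b4 overlapped between the groups, at 13.5% to 20.9% and 15.04% to 17.1%.

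**Figure D3:**
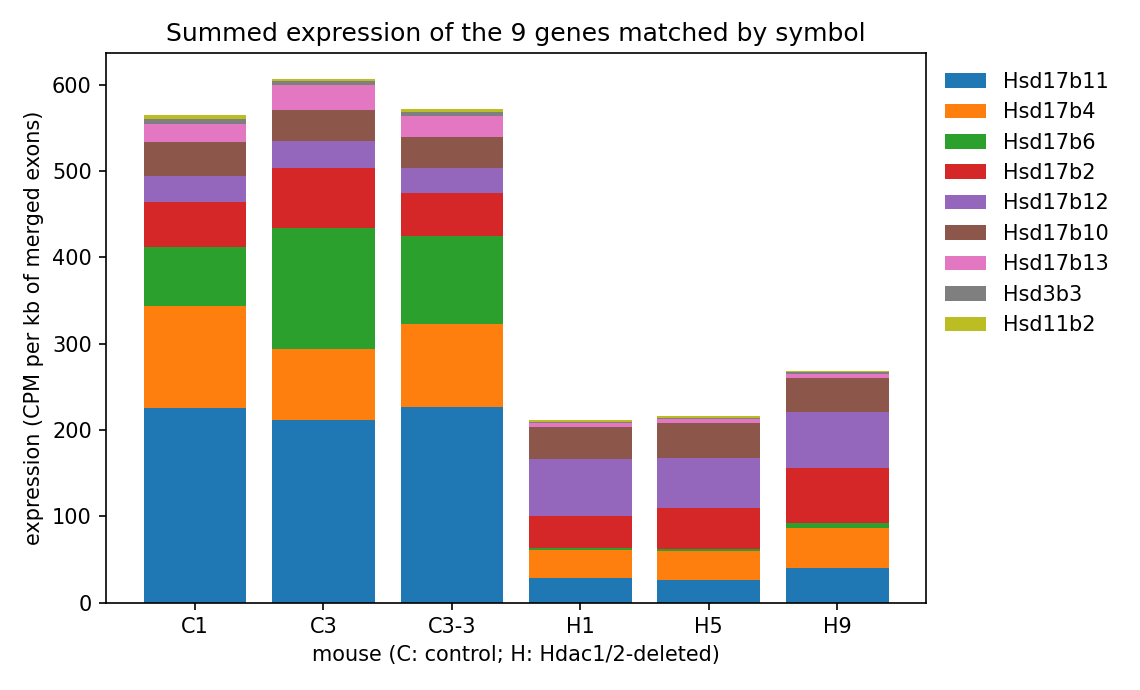
Summed expression of the 9 genes matched by symbol in each mouse, in CPM per kb of merged exons and stacked by gene. The control mice C1, C3 and C3-3 reach 565 to 606 CPM per kb and the Hdac1/2-deleted mice H1, H5 and H9 reach 211 to 268, with Hsd17b11 the largest part in every control mouse and Hsd17b12 the largest in every Hdac1/2-deleted mouse.

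Hsd17b2 and Hsd11b2 share chromosome 8, Hsd17b11 and Hsd17b13 share chromosome 5, and each other member has a chromosome of its own. Positions are those of GENCODE release M21 on GRCm38, matched by gene identifier. Hsd17b6 (ENSMUSG00000025396) lies on chromosome 10 from 127990936 to 128007611, on the minus strand. It ends a row of retinol dehydrogenase paralogs. Of 7 tested paralogs within 250 kb, 5 were called lower, namely Rdh16 (log2 fold change -5.12), BC089597 (-5.38), Rdh9 (-2.90), Rdh7 (-2.77) and Rdh18-ps, and 0 higher. Rdh18-ps was counted only 11 to 17 times per control library and 0 to 2 times per Hdac1/2-deleted library, so its fitted fold change is not given. Rdh1 (-0.30) and Sdr9c7 (-0.19) were not called, with means of 0.41 and 0.33 CPM for Rdh1 and of 0.23 and 0.20 CPM for Sdr9c7. Rdh7 was the most abundant of them, at 424 ± 70.1 CPM in control and 62.1 ± 26.6 in Hdac1/2-deleted IEC. Of the 11 other tested genes in the window, 0 were called lower and 2 higher, with a median log2 fold change of 0.10. Prim1, the nearest of them at 7557 bases, had a log2 fold change of -0.53 (adjusted p = 0.28, same test), and Naca one of -0.01. Paralogs share sequence: 10.5% of the 100-base windows of the longest coding transcript of Hsd17b6 also occur in another gene, Rdh1 among them. With the counts of Hsd17b6 and its 6 listed Rdh paralogs summed, an alternative chosen after seeing the data, the log2 fold change was -3.17.

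Hsd17b11 (ENSMUSG00000029311) and Hsd17b13 (ENSMUSG00000034528) are neighbours on the minus strand of chromosome 5, from 103989762 to 104021919 and from 103955440 to 103977410, with 12352 bases between them. Apart from each other, 3 further genes within 250 kb of Hsd17b11 were tested. Klhl8 (-2.97) and Nudt9 (-1.45) were called lower, and Aff1 (-0.35, adjusted p = 0.072, same test) was not. Klhl8 was below 1 CPM in control IEC, whereas Nudt9, an ADP-ribose hydrolase gene, went from 42.8 ± 1.31 to 15.7 ± 0.34 CPM. Neither Hsd17b11 nor Hsd17b13 shared a 100-base window with another gene. Hsd3b3 (ENSMUSG00000062410) lies on chromosome 3 from 98741523 to 98763127 beside Hsd3b2, and 14.3% of its windows occur in Hsd3b2 too. Summing Hsd3b3 with the 1 other Hsd3b gene of that cluster in the table left a log2 fold change of -1.66. Hao2, in the same region, was called higher (3.74), from 0.35 to 4.74 CPM. C1 (0.72 CPM) stood above C3 (0.16) and C3-3 (0.15) for Hao2, and without C1 the log2 fold change was 4.91. Hsd17b12 (ENSMUSG00000027195) lies on chromosome 2 from 94032689 to 94157964, and of its 7 tested neighbours within 250 kb 0 were called higher and 1 lower. Hsd17b4 (ENSMUSG00000024507) lies on chromosome 18 from 50128201 to 50196269, Hsd17b10 (ENSMUSG00000025260) on chromosome X from 152001845 to 152004442 and H2-Ke6 (ENSMUSG00000073422) on chromosome 17 from 34026033 to 34028060. Hsd11b2 (ENSMUSG00000031891) spans 105518755 to 105523988 and Hsd17b2 (ENSMUSG00000031844) spans 117701904 to 117759027 on chromosome 8.

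**Figure D4:**
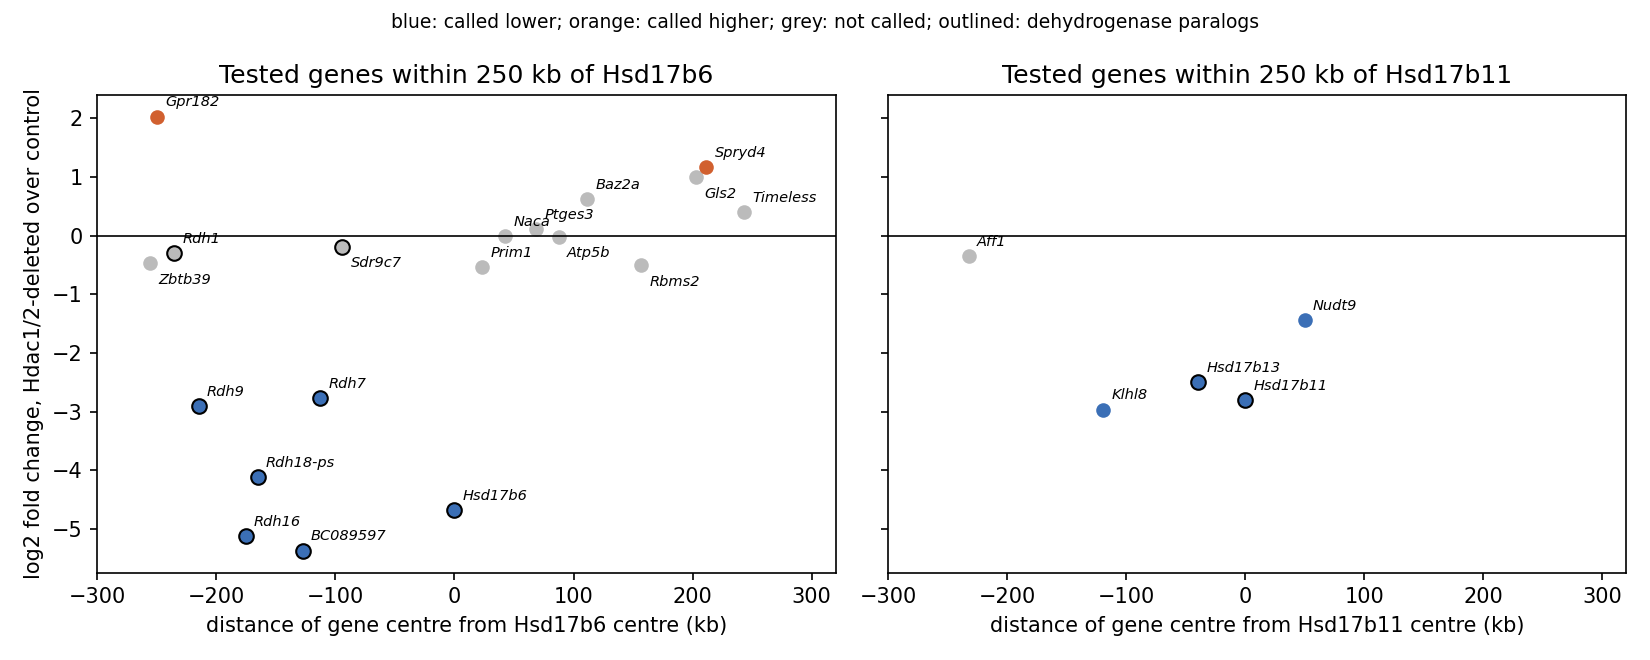
Log2 fold change of every tested gene within 250 kb of Hsd17b6 (left) and Hsd17b11 (right), against the distance of its centre in kb. Dehydrogenase paralogs are outlined, and the 5 paralogs called lower beside Hsd17b6 lie between -2.77 and -5.38, while no gene on its other side was called lower.

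The genes that work with the members were followed in lists written from pathway knowledge. Up to 3 called genes per list were named by size of change, and the others named were chosen after their values were seen. All log2 fold changes and calls below come from the same edgeR fit. The counts per list stand beside 12.7% called lower, 12.4% called higher and 25.2% called either way over all genes tested. No list was tested as a set. For lipid chain building, 14 elongation and desaturation genes were tested, of which 5 were called higher and 0 lower, with a median log2 fold change of 0.70. Hsd17b12 catalyses the first reduction of the elongation cycle. The condensing enzyme gene Elovl6 rose from 64.3 ± 8.03 to 204 ± 32.1 CPM (1.66, adjusted p = 1.1e-04, edgeR quasi-likelihood test). The enoyl reductase gene Tecr rose from 123 ± 13.6 to 300.4 ± 53.7 CPM (1.29, adjusted p = 5.3e-04, same test), and the dehydratase gene Hacd2 from 20.3 ± 1.70 to 43.3 ± 2.30 CPM (1.10). With Hsd17b12, at least 1 gene for each step of the cycle was called higher. Fads3 (4.02) and Elovl2 (2.24), a gene below 1 CPM on average in both groups, were the other genes called. The elongase gene Elovl7 (-0.96, adjusted p = 0.0031, same test) passed the adjusted p downward but missed the 2-fold limit. Hacd3 (0.75), Fads1 (0.66) and Hacd1 (0.61) did the same upward. The elongase genes Elovl1 (0.34) and Elovl5 (-0.0014) did not pass the adjusted p. Over the alternative settings 5 to 6 genes of the list were called higher and 0 to 1 lower.

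For peroxisomal beta-oxidation, where Hsd17b4 performs the hydration and dehydrogenation steps, a list of 22 genes was tested. It also held the alpha-oxidation genes Phyh and Hacl1 and the import genes Pex5, Pex7 and Pex14. Of the 22 genes, 6 were called lower and 1 higher, with a median of -0.66. Decr2, an auxiliary reductase for unsaturated chains, fell from 65.0 ± 9.54 to 10.3 ± 0.54 CPM (-2.65, adjusted p = 8.6e-06, edgeR quasi-likelihood test). Scp2, whose longer product is the thiolase for branched chains, fell from 1096 ± 46.8 to 318 ± 48.1 CPM (-1.78), and Phyh, the phytanoyl-CoA hydroxylase, fell by 1.53 on the log2 scale. Ehhadh, the parallel bifunctional enzyme (-0.75, adjusted p = 0.019, same test), passed the adjusted p but not the 2-fold limit. Pex14 (1.10), a docking protein of peroxisomal import, was the gene called higher.

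Of 16 lipid droplet genes tested, 2 were called lower and 2 higher, with a median of -0.56, a share of calls near the 25.2% of all genes. Over the alternative settings 1 to 5 were called lower and 0 to 3 higher. Abhd5, the activator of adipose triglyceride lipase, fell from 24.8 ± 3.65 to 4.66 ± 0.91 CPM (-2.41), and the coat protein gene Plin2 from 127 ± 7.68 to 58.0 ± 5.70 CPM (-1.13). The coat protein gene Plin5 was counted 2 to 13 times per control library and 291 to 943 times per Hdac1/2-deleted library (6.15, adjusted p = 4.5e-05, edgeR quasi-likelihood test). Plin4 (1.93), low throughout, lost its call in the edgeR fit without H1, H5, C3 or C3-3 in turn, with adjusted p up to 0.099, and kept it without H9 or C1. The other 12 genes of the list were not called.

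For corticosteroid action, 11 genes were tested, of which 3 were called lower and 1 higher, with a median of -0.44. The glucocorticoid receptor gene Nr3c1 was at 118, 112 and 109.9 CPM in C1, C3 and C3-3, and at 55.5, 41.5 and 54.4 CPM in H1, H5 and H9 (-1.17, adjusted p = 3.9e-04, edgeR quasi-likelihood test). The mineralocorticoid receptor gene Nr3c2, whose product Hsd11b2 shields from corticosterone, was at 44.2 ± 10.3 and 42.5 ± 9.41 CPM and overlapped (-0.06, adjusted p = 0.85, same test), and its sign changed with library totals as the only scaling (0.13). The kinase gene Sgk1, a target of both receptors, was at 981, 317 and 237 CPM in C1, C3 and C3-3 and at 35.2, 26.9 and 30.7 CPM in H1, H5 and H9 (-4.05). Tsc22d3, a glucocorticoid target also called Gilz, was at 281, 122 and 66.2 CPM in the control mice and at 15.97, 14.2 and 10.2 CPM in the Hdac1/2-deleted mice (-3.54). C1 was the highest mouse for Sgk1 and Tsc22d3 as it was for Hsd11b2, and all control mice lay above all Hdac1/2-deleted mice for each of the 3. Without C1 the log2 fold changes of Sgk1 and Tsc22d3 were -3.15 and -2.80, and both were still called. The gene called higher, the chaperone gene Hsp90ab1 (1.04), fell under 2-fold without H5, C3 or C3-3 in turn (0.94, 0.92 and 0.93). The other 7 genes, Nr3c2 among them, were not called. Fkbp5 was at 104 ± 94.5 CPM in control and 106 ± 21.2 CPM in Hdac1/2-deleted IEC (0.03, adjusted p = 0.98, same test). Per1 (-0.61), Dusp1 (-0.44) and Scnn1a (-0.45) did not pass the adjusted p. Nedd4l (0.72) and Fkbp4 (0.98) passed it in the upward direction but missed the 2-fold limit.

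A list of other hydroxysteroid dehydrogenases and the enzyme H6pd held 7 tested genes, of which 2 were called higher and 2 lower, with a median of -0.10. H6pd, no hydroxysteroid dehydrogenase itself, encodes the hexose-6-phosphate dehydrogenase that supplies NADPH to Hsd11b1 in the endoplasmic reticulum. It was at 24.96, 9.92 and 23.2 CPM in C1, C3 and C3-3 and at 194, 321 and 216 CPM in H1, H5 and H9, or 3.65 higher on the log2 scale (adjusted p = 4.1e-04 in edgeR's test, SE 0.40). Every Hdac1/2-deleted mouse was far above every control mouse. Hsd11b1 itself did not pass the filter on low counts. Hsdl2, a peroxisomal relative, fell from 32.3 ± 3.32 to 10.9 ± 0.90 CPM (-1.57), and the sterol dehydrogenase gene Nsdhl rose from 24.98 ± 10.04 to 61.0 ± 13.5 CPM (1.29). Hsd3b2 (-1.39, adjusted p = 0.021, same test) lost its call without H1, H5 or C3-3, with adjusted p up to 0.092. Hsd17b7 (0.25), Hsd3b7 (-0.10) and Hsdl1 (-0.38) were not called.

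Of 9 tested genes of local glucocorticoid synthesis, 1 was called higher and 1 lower, with a median of 0.36. Cyp21a1, the steroid hydroxylase gene of the adrenal cortex, was counted 0 to 2 times per control library and 150 to 459 times per Hdac1/2-deleted library. It was at least 109-fold higher when each control library is set at a floor of 3 counts. The cluster of this gene holds a near-identical pseudogene, so its assignment is uncertain. Fdx1, the ferredoxin that donates electrons to mitochondrial P450 enzymes, fell from 29.0 ± 0.64 to 9.07 ± 0.11 CPM (-1.68). Of 8 tested sex steroid genes, 4 were called lower and 0 higher, with a median of -1.04. The sulfotransferase gene Sult2b1 fell from 261 ± 50.8 to 78.1 ± 17.2 CPM (-1.74) and Pgrmc1, a haem-binding membrane protein, from 312 ± 18.3 to 121 ± 8.94 CPM (-1.37). Gper1 (-2.49) and Cyp17a1 (-2.80) were at 1.38 and 0.69 CPM in control IEC.

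Of 15 tested relatives among the retinol and steroid dehydrogenases of the short-chain superfamily, 6 were called lower and 2 higher, with a median of -0.30. Besides the Rdh genes beside Hsd17b6 these were Rdh5 (-3.52), a retinol dehydrogenase, from 9.52 ± 2.44 to 0.82 ± 0.07 CPM, Dhrs4 (-1.65) and Rdh14 (-1.46). Bdh1, the ketone body dehydrogenase, was called higher (1.16), as was Rdh12 (1.44) at a low level. Rdh12 passed both limits in 10 of 13 alternative fits, and its adjusted p was 0.070 in the edgeR fit without H5. Rdh11 (0.94) and Rdh10 (0.63) passed the adjusted p in the upward direction but missed the 2-fold limit.

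All 9 tested genes of mitochondrial fatty acid synthesis and lipoylation, the route of the H2-Ke6 product and its partner Cbr4, were not called, and Cbr4 had a log2 fold change of -0.43 (adjusted p = 0.16, edgeR quasi-likelihood test). Mecr (0.88, adjusted p = 0.0015, same test) passed the adjusted p but missed the 2-fold limit. Over the alternative settings 0 to 1 genes of this list were called higher. Of 13 tested genes of mitochondrial RNase P and isoleucine breakdown, the routes of Hsd17b10, 3 were called lower and 1 higher, with a median of -0.13. The RNase P partners Trmt10c (0.64, adjusted p = 0.12) and 1110008L16Rik (0.27, adjusted p = 0.27, both same test) were not called. Pcca (-1.42), Bcat2 (-1.41) and Acat1 (-1.39) of branched-chain amino acid breakdown were called lower, and Dbt (1.22) was called higher, although it was 0.996 without H1.

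**Figure D5:**
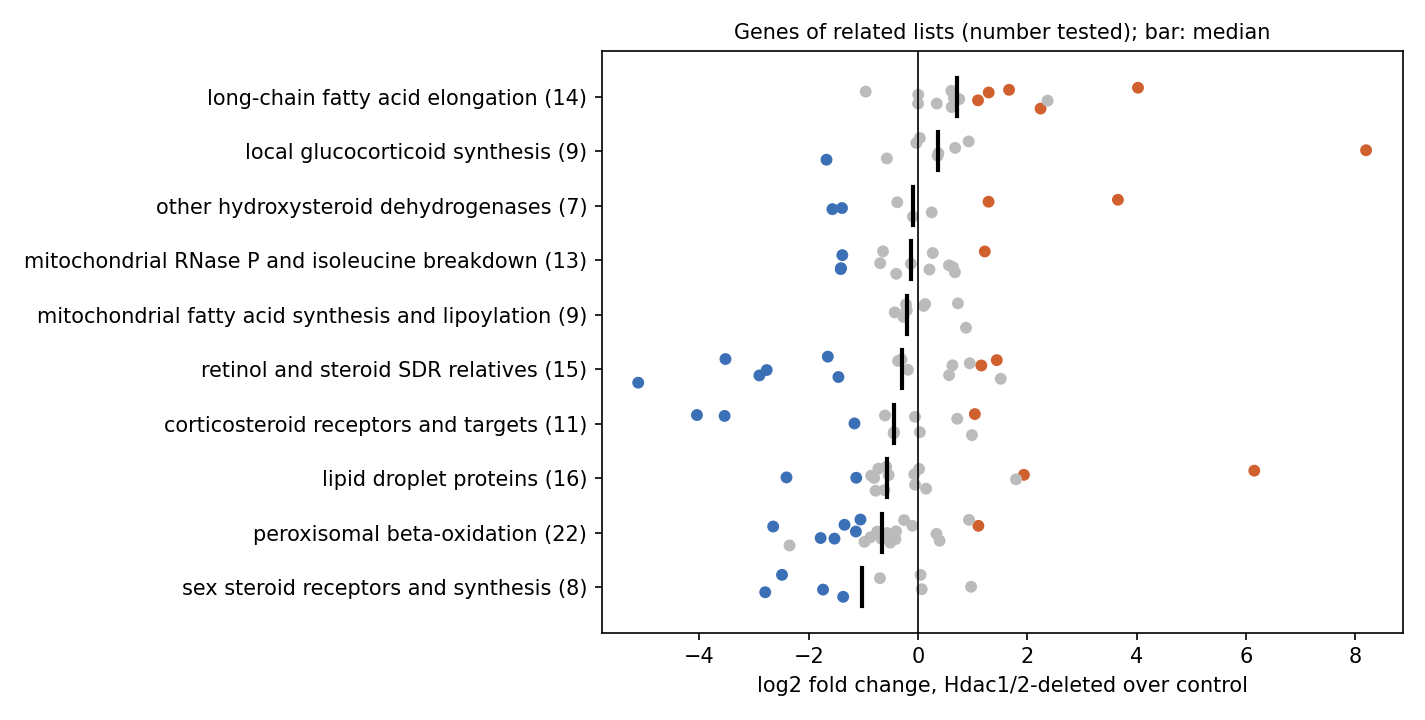
Log2 fold change of every tested gene in the 10 lists of related genes, with the number tested in brackets and a bar at the median. The medians run from -1.04 for sex steroid receptors and synthesis to 0.70 for long-chain fatty acid elongation, the list with 5 genes called higher and 0 lower.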

How the data were processed

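Per the labels, RNA of jejunal IEC from 6 separate mice was sequenced. The authors deposited raw counts per gene, which were used here, beside 6 further columns of scaled counts (a normalised score) that were not used. Columns of the authors' own comparisons (log2 fold changes, mean log2 CPM, p-values of DESeq and edgeR) were not used either. The paper's methods name STAR and GRCm38, whereas the submitters' processing notes name mm9, STAR 2.4.0f1 and bcl2fastq 1.8.4. The counting tool, its strand setting and the annotation are not given in the sources used here. Reads of overlapping genes or near-identical copies may therefore be split between them.

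Counts of the 15618 genes passing edgeR's filterByExpr were scaled by TMM and fitted with edgeR 4.0.16 (robust quasi-likelihood test, prior count 0.125, R 4.3.3), with Benjamini-Hochberg adjustment over all genes tested. A call needed an adjusted p of at most 0.05 and at least a 2-fold change. Standard errors are the log2 fold change over the square root of the F statistic. The scripts were tested on simulated data. A floor of 3 counts corresponded to 0.0405 to 0.0790 CPM per library and covers counting error only. With 3 mice against 3, an exact permutation test of a single gene cannot go below p = 0.10, so none is given. The alternatives were DESeq2 1.42.0, other scalings, filters and limits, and leaving out each mouse. All members were named, and from each related list up to 3 called genes with the largest change and a mean log2 CPM of at least 1. The members and lists were chosen with earlier results of these data known. Gene positions came from GENCODE M21 (GRCm38) and promoters from RefSeq (GRCm38.p6); plots were drawn with matplotlib 3.10.9 in Python 3.11.15.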

Additional observations from a re-analysis of the deposited data

How the results depend on the processing

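Over the alternatives tried, 176 of 183 values for the members counted as unchanged, and 0 fold changes changed sign. The other 7 were fold changes of Hsd11b2 that kept their direction but missed a limit. The 183 values include the numbers of members called higher and lower, which have no direction. A move from 6 to 5 members called lower counted as unchanged. Settings that altered only the limits kept the main fold changes, so no sign could change there. Hsd11b2 had a log2 fold change of -0.9998 with DESeq2's size factors, of -0.9975 in DESeq2's own test and of -0.85 with library totals only, and without 1 mouse it ranged from -1.02 to -0.66 where the call was lost. The number of members called lower was 5 to 6 and the number called higher 1 when each mouse was left out in turn. Over all related lists, 15 genes were called higher and 27 lower, against 27 higher and 43 lower without the fold limit, which admits smaller changes by construction, and 12 to 18 higher and 26 to 31 lower without 1 mouse. With library totals only the counts were 22 higher and 23 lower, so lower calls no longer clearly outnumbered higher ones, and with DESeq2's own test 19 higher and 28 lower. Scaling by library totals only moved the median log2 fold change of all genes from -0.01 to 0.18. Under it Hdac2 turned to 0.0069 and Nr3c2 to 0.13, while Nr3c1 (-0.98) and Plin2 (-0.95) fell short of 2-fold. Without 1 mouse Nr3c2 ranged from -0.19 to 0.14. The cause of these shifts was not tested. No paired analysis was possible because the labels of the groups share only 1 number. Depth limits H2-Ke6, whose counts lay between 30 and 90.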
